A study of Mus musculus with 6 samples.

Results

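The 39 protein-coding Hox genes of the mouse lie in the HoxA, HoxB, HoxC and HoxD clusters, and their mRNA was described by cluster and by position in LSK cells, the bone marrow cells that lack lineage markers and carry both Sca-1 and c-Kit, a fraction rich in stem cells and multipotent progenitors. They were taken by symbol and gene type from the 55573 genes of the count table, and 14 of them had enough counts to be tested among 20646 genes. Bulk RNA sequencing covered 3 wild-type (Etv6+/+) libraries and 3 libraries of mice with 1 mutant allele, all from 3-month-old C57BL/6J mice. The second group is mutant in its titles and Etv6+/- in its genotype field, and R355X is the allele the series names, so it is called Etv6 R355X/+ here. No transgene, Cre or treatment is named for either group. Etv6 encodes an ETS-family transcriptional repressor.

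Hox genes encode homeodomain transcription factors. Each cluster arose by duplication of an ancestral cluster, so genes with the same number in different clusters, called a paralogue group, are each other's closest relatives, and low numbers lie at the end that is used first and most anteriorly in the embryo. In hematopoietic stem and progenitor cells, HOXA9, HOXA10 and HOXB4 are known regulators of self-renewal, HOX proteins bind DNA together with PBX and MEIS partners, and transcription of the clusters is maintained by trithorax-group proteins such as KMT2A and silenced by Polycomb complexes. Hox levels are known to fall as progenitors differentiate.

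Within the clusters, several genes that were abundant in LSK cells had a paralogue with hardly a read. Promoter sequences of 2 such pairs are shown so that their start regions can be compared. They are the RefSeq windows of build GRCm38.p6 from 250 bases before to 50 bases after a RefSeq start of the gene. They are written 5′ to 3′ on the gene's strand, with each CpG dinucleotide in capitals. For paralogue group 9 they are Hoxa9 at chr6:52227321-52227620 (minus strand), one of the most abundant members, and Hoxd9 at chr2:74697513-74697812 (plus strand), which had 1 count over the 6 libraries.

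Hoxa9: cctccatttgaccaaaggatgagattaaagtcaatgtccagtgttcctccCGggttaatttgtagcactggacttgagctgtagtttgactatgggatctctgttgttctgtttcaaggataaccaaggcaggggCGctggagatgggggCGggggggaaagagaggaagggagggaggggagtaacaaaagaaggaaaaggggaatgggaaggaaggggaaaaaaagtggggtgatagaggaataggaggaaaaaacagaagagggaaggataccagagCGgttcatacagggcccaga

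Hoxd9: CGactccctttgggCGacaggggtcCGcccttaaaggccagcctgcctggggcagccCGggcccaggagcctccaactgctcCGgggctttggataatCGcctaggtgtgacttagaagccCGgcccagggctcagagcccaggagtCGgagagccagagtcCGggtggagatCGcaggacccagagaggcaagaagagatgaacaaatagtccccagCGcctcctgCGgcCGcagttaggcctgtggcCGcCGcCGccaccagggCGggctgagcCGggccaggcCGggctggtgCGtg

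For paralogue group 4 they are Hoxb4 at chr11:96318017-96318316 (plus strand), the most abundant HoxB gene, and Hoxd4 at chr2:74721728-74722027 (plus strand), which had no count.

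Hoxb4: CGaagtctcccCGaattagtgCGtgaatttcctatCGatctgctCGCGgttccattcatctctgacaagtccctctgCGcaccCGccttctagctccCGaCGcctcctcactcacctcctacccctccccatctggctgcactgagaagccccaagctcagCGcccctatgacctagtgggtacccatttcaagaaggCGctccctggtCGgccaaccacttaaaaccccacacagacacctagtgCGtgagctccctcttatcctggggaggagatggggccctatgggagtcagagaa

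Hoxd4: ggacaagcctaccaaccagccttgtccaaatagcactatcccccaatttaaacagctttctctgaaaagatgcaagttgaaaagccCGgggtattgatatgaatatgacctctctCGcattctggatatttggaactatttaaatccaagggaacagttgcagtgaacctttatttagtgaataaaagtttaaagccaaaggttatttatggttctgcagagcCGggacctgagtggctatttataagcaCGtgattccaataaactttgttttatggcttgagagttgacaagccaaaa

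In the GENCODE M21 annotation the outermost start of Hoxa9 is at 52231089 and that of Hoxd4 at 74711929. Neither lies in the printed window of its gene, so these windows do not cover every start. The Hoxa9 window held 4 CpG and the Hoxd9 window 20, whereas the Hoxb4 window held 14 and the Hoxd4 window 4. The more abundant gene thus had fewer CpG in the first pair and more in the second. RefSeq gave 24 such windows for 22 of the 39 members, 9 of them for 8 tested genes and 15 for 14 genes that were too low to test. The median number of CpG was 14 in the tested and 15 in the untested members, against 7 in all 32851 windows of the same length. Letter motifs were searched on both strands in these windows as a description. The ETS-type word CCGGAAG was in 0 of the 24 windows and in 8.86% of all windows, and the PBX-HOX-type word TGATTTAT was in 0 of 24 and in 0.977% of all. The MEIS-type word TGACAG was in 2 of the 9 windows of tested members, those of Hoxa2 and Hoxa3, in 0 of the 15 others, and in 19.2% of all.

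The libraries held 45.2 to 92.2 M expected counts, with mutant replicate 1 the deepest. Etv6 (chromosome 6, 134035700 to 134270158) measured 454, 419 and 400 CPM (expected counts per 1 M counts of the library) in wild-type replicates 1 to 3 and 305, 341 and 386 CPM in the mutant replicates. The groups did not overlap, and the mutant mean was 81.0% of wild type (95% interval 71.0 to 92.5%, adjusted p = 0.245, from edgeR's quasi-likelihood test adjusted over all genes by Benjamini and Hochberg's method). The R355X change itself cannot be seen in gene counts. The sorting markers were present in every library, Kit at 351 to 451 CPM and Ly6a (Sca-1) at 71.7 to 93.5 CPM, and all 9 LSK and stem cell markers listed were tested. Of these 9, 8 had a log2 fold change of mutant over wild type below 0 (median -0.13). In edgeR 2 of the 9 were lower at an unadjusted p under 0.05, where 4.8% of all tested genes were. None of the 9 passed after adjustment (smallest edgeR adjusted p = 0.0863). Of the markers of other cell types, the 8 myeloid genes summed to 6549 CPM in wild-type replicate 3 and to 3067 to 3991 CPM in the other libraries, and the 8 B cell genes to 105 to 138 CPM in wild type and 147 to 327 CPM in the mutant. The 8 mast cell, basophil and eosinophil genes summed to 106 to 111 CPM in wild type and 128 to 138 CPM in the mutant. In edgeR 7 of the 8 B cell genes were higher and 0 lower at an unadjusted p under 0.05. Of the 8 mast cell, basophil and eosinophil genes, 6 were higher and 0 lower, where 5.83% of all tested genes were higher. The 8 erythroid genes summed to 106 to 237 CPM in wild type and 152 to 309 CPM in the mutant. The 8 T and NK cell genes summed to 103 to 130 CPM and 114 to 149 CPM. The 12 stromal markers, 6 of them tested, summed to 25.8 to 36.5 CPM in 5 libraries and higher in wild-type replicate 1. Of all listed markers, Hbb-bt, Hbb-bs, Klrb1c and Fcer1a passed after adjustment by edgeR, all higher in the mutant, and none was at 0 in all libraries.

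Hox mRNA in LSK cells came almost wholly from the HoxA and HoxB clusters. In HoxA (chromosome 6, 52155590 to 52260880, mm10, 11 genes) the tested genes formed an unbroken block of 8 from Hoxa2 to Hoxa10. In HoxB (chromosome 11, 96194316 to 96368256, 10 genes) they formed an unbroken block of 6 from Hoxb2 to Hoxb7. No gene of HoxC (chromosome 15, 102921103 to 103036852, 9 genes) or HoxD (chromosome 2, 74668310 to 74765142, 9 genes) reached the count filter. The 6 libraries together gave 41011 counts to HoxA, 5553 to HoxB, 57 to HoxC and 5 to HoxD.

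**Figure D1:**
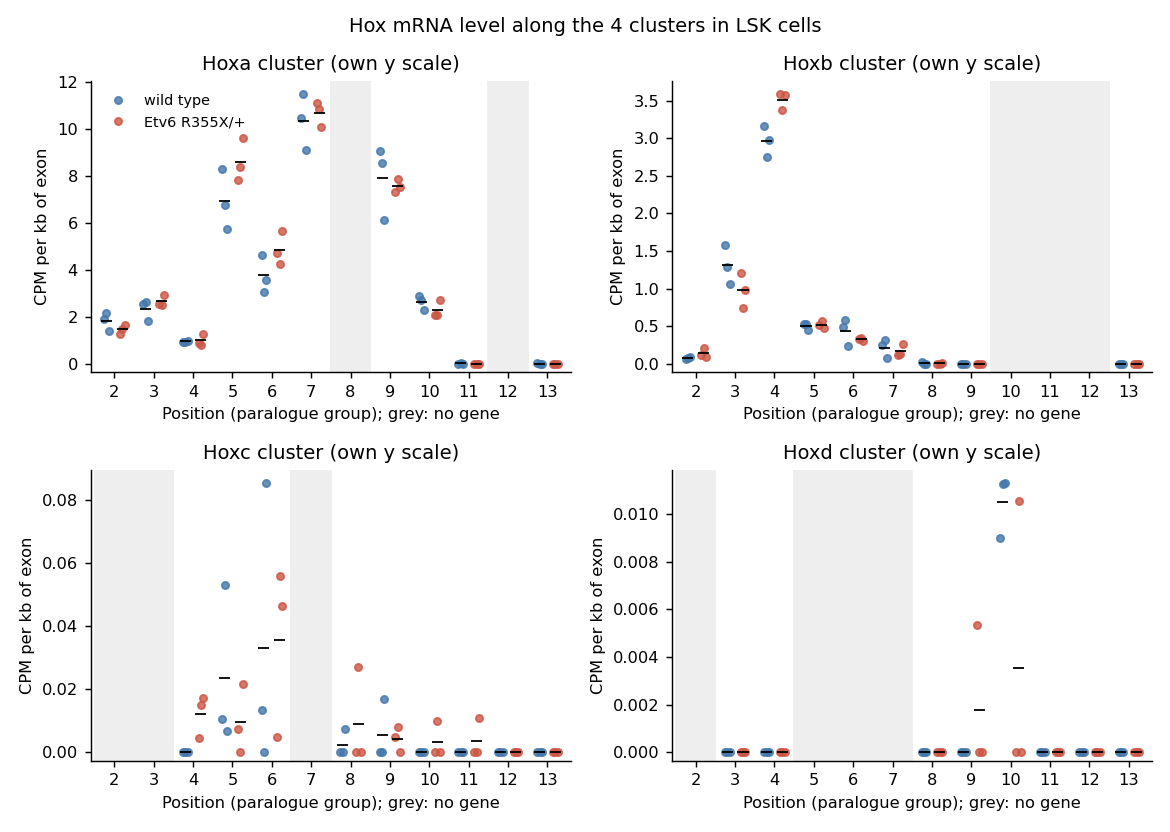
Level of the Hox genes of paralogue groups 2 to 13 by cluster, in CPM per kilobase of exon on a separate linear scale for each cluster. Points are libraries (blue wild type, red Etv6 R355X/+), short bars are group means, and grey marks positions without a gene. HoxA is high at positions 5 to 7 and 9, HoxB peaks at position 4, and the HoxC and HoxD scales end below 0.1.

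Levels between genes are compared per length, as CPM divided by the kilobases of annotated exon. On this scale HoxA summed to 40.7, 38.3 and 31.0 in wild-type replicates 1 to 3 and to 37.7, 38.3 and 41.5 in the mutant. HoxB summed to 6.08, 5.54 and 4.89 in wild type and to 5.85, 5.36 and 5.71 in the mutant. The groups overlapped for both clusters. HoxA held 86.8% ± 0.612 of the summed Hox level in wild type and 87.2% ± 0.644 in the mutant (SD, n = 3), and HoxB 13.1% ± 0.489 and 12.6% ± 0.743. HoxC held 0.168% and HoxD 0.019% over all libraries. In a bulk sample a low level in every cell and a higher level in few cells cannot be told apart, and nor can fewer cells of a type and less RNA per cell.

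Hoxa7 had the highest level, 10.5 ± 0.847 CPM per kilobase (SD, n = 6 libraries), at percentile 84.7 among protein-coding genes. Hoxa5 at 7.77 ± 1.36, Hoxa9 at 7.74 ± 1.03 and Hoxa6 at 4.31 ± 0.906 came next. Hoxb4, at 3.24 ± 0.335, was the highest HoxB gene, and it was followed by Hoxa3 at 2.49 ± 0.367, Hoxa10 at 2.45 ± 0.360, Hoxa2 at 1.64 ± 0.337, Hoxb3 at 1.14 ± 0.288 and Hoxa4 at 0.968 ± 0.153. The rest of HoxB stood lower, with Hoxb5 at 0.506 ± 0.0417, Hoxb6 at 0.381 ± 0.127, Hoxb7 at 0.189 ± 0.0968 and Hoxb2 at 0.105 ± 0.0531. Between neighbours in this order, the ranges over libraries were apart for Hoxa9 above Hoxa6 and for Hoxa4 above Hoxb5, and the other tested neighbours overlapped. Of the exon bases of Hoxa7, 20.4% are shared with the opposite-strand gene Hoxaas3, so its level also depends on how reads there were split. The order depends on the length used. With the longest annotated transcript in place of all exons, Hoxa7 was at 14.9, Hoxa9 at 13.4, Hoxa5 at 7.77, Hoxa3 at 5.78, Hoxa6 at 4.31 and Hoxb4 at 3.24 CPM per kilobase, so that Hoxa9 moved above Hoxa5 and Hoxa3 above Hoxa6.

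One gene held nearly the whole level of most paralogue groups. Hoxa9 held 99.9% of group 9, Hoxa10 99.6% of group 10, Hoxa7 98.2% of group 7, Hoxa2 94.0% of group 2, Hoxa5 93.7% of group 5 and Hoxa6 91.2% of group 6. Group 3 was shared, with 68.5% from Hoxa3 and nearly all of the rest from Hoxb3. Group 4, which holds Hoxa4, Hoxb4, Hoxc4 and Hoxd4, was the one group with a tested member where a HoxB gene led, with Hoxb4 at 76.9%. Group 7 alone made up 24.6% of all Hox level, group 5 18.9% and group 9 17.8%. With the longest transcript as length, group 9 held 23.1% and group 5 14.2%. The groups at the posterior end were nearly silent, with 3 counts for group 11, 0 for group 12 and 1 for group 13 over all libraries, and group 8 had 9.

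Of the 25 untested members, 12 had no count in any library, namely Hoxb1, Hoxb9, Hoxb13, Hoxc12, Hoxc13, Hoxd1, Hoxd3, Hoxd4, Hoxd8, Hoxd11, Hoxd12 and Hoxd13. A count of 0 over the 6 libraries allows up to 3 counts, or 0.00874 CPM, by counting error alone. Hoxc6 had 25 counts in all and Hoxc5 16. Hoxc4 had 0 in each wild-type library and 1, 2 and 2 in the mutant, and Hoxc8 had 5 counts in all. Hoxb8, Hoxc9 and Hoxd10 had 4 each, Hoxa11 had 2, and Hoxa13, Hoxc10, Hoxc11 and Hoxd9 had 1 each. These counts are too few to compare between genotypes.

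The genotypes were compared gene by gene, and no tested Hox gene passed. By edgeR's quasi-likelihood test 0 of 14 had an adjusted p under 0.05, where 0.266% of all tested genes did (0.189% higher and 0.0775% lower in the mutant). At an unadjusted p under 0.05 there were 0 of 14 too, where 10.6% of all genes passed (5.83% higher and 4.8% lower). DESeq2 and limma-voom called none after adjustment, DESeq2 without an adjusted p for Hoxb2 and Hoxb7. DESeq2 gave 1 member, Hoxa5, an unadjusted p under 0.05. Adjusted p-values in edgeR ran from 0.494 to 0.968. The log2 fold change of mutant over wild type was above 0 for 8 members and below 0 for 6, where it was below 0 for 49.4% of all tested genes. Its median was 0.05 over the members and 0.0019 over all tested genes. The genotypes did not overlap for 2 of 14 members, Hoxb2 and Hoxb4, both higher in the mutant, where 16.3% of all tested genes did not overlap, 8.45% with the mutant higher and 7.84% with it lower.

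**Figure D2:**
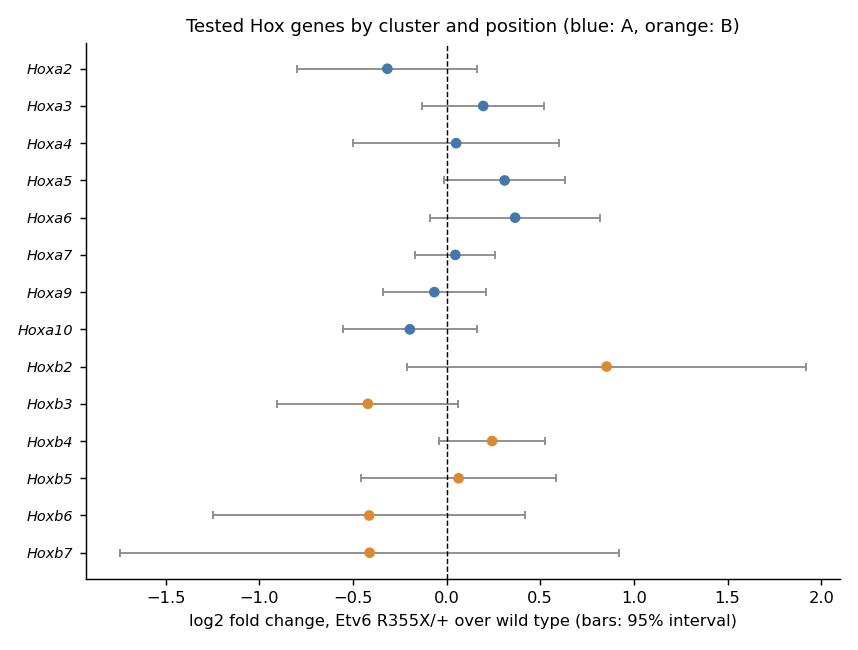
Log2 fold change of Etv6 R355X/+ over wild type for the 14 tested Hox genes in the order of their numbers, with 95% intervals from the edgeR fit (blue HoxA, orange HoxB). Every interval spans 0, and the intervals are widest for Hoxb2 and Hoxb7.

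Hoxa9, a posterior HoxA gene and a known driver of acute leukemia when overexpressed, had the highest CPM of the members. The gene (52223100 to 52231089 on chromosome 6) measured 50.6, 47.8 and 34.2 CPM in wild-type replicates 1 to 3 and 40.8, 43.9 and 42.0 CPM in the mutant. The mutant libraries lay inside the wild-type range, which was set by replicate 3 at the low end. The mutant mean was 95.6% of wild type, with a 95% interval from 79.0 to 116% (log2 fold change -0.07, SE 0.124, edgeR adjusted p = 0.901). Without wild-type replicate 3 the log2 fold change was -0.22 (edgeR adjusted p = 0.367), and without wild-type replicate 1 it was 0.045. The coefficient of variation of Hoxa9 was 19.9% in wild type, where counting alone would give 2.06%, and 3.68% in the mutant, where it would give 1.97%.

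Hoxa10, the other posterior gene of the block, measured 9.41, 8.85 and 7.43 CPM in wild-type libraries against 6.71, 6.83 and 8.93 CPM in mutant ones. The groups overlapped through mutant replicate 3, and the mutant mean was 87.3% of wild type (95% interval 68.2 to 112%, edgeR adjusted p = 0.718).

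The central genes Hoxa5, Hoxa6 and Hoxa7 lie side by side between Hoxa4 and Hoxa9. Hoxa7, the member with the highest level, measured 30.1, 33.0 and 26.1 CPM in wild-type libraries against 31.9, 31.2 and 29.0 CPM in mutant ones. Its interval on the log2 scale was the narrowest of the 14 members, from 89.0 to 120% of wild type around 103% (edgeR adjusted p = 0.911). Hoxa5 measured 15.6, 12.7 and 10.8 CPM in wild-type libraries against 14.7, 15.7 and 18.0 CPM in mutant ones. The groups overlapped through wild-type replicate 1. The mutant mean of Hoxa5 was 124% of wild type (95% interval 99.1 to 155%), and it had the smallest p of any member, 0.0587 unadjusted and 0.494 adjusted in edgeR. Hoxa6, its neighbour, measured 4.06, 2.68 and 3.12 CPM in wild-type libraries against 4.11, 3.72 and 4.92 CPM in mutant ones. It overlapped through the same wild-type library, at 129% of wild type (95% interval 94.1 to 176%, edgeR adjusted p = 0.582).

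The anterior HoxA genes Hoxa2, Hoxa3 and Hoxa4 pattern the hindbrain and neck in the embryo. Hoxa3 measured 15.2, 15.7 and 10.9 CPM in wild-type libraries against 15.3, 15.1 and 17.6 CPM in mutant ones, or 115% of wild type (95% interval 91.4 to 143%, edgeR adjusted p = 0.689). Hoxa2 measured 3.34, 3.85 and 2.46 CPM in wild-type libraries against 2.25, 2.61 and 2.92 CPM in mutant ones, or 80.3% (95% interval 57.6 to 112%, adjusted p = 0.657). Both overlapped between the genotypes. Hoxa4, at 1.48, 1.49 and 1.56 CPM in wild-type libraries against 1.43, 1.29 and 2.01 CPM in mutant ones, stood at 104% (95% interval 70.7 to 152%, edgeR adjusted p = 0.968). The annotated Hoxa3 gene, 52169062 to 52213336, spans Hoxa4, Hoxa5 and Hoxa6, and 27.1% of its exon bases are shared with other genes. Shared bases made up 16.0% for Hoxa4 and 15.0% for Hoxa2. Reads in the shared bases depend on how the authors' counting split them.

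In HoxB, Hoxb4 was the most abundant gene, and HOXB4 is known for expanding stem cells when it is overexpressed. Hoxb4 (96318267 to 96321638 on chromosome 11) measured 8.12, 7.06 and 7.66 CPM in wild-type libraries against 9.20, 8.67 and 9.18 CPM in mutant ones. All 3 mutant libraries lay above all 3 wild-type libraries. The mutant mean was 118% of wild type (95% interval 97.3 to 144%, log2 fold change 0.24, SE 0.128), which did not pass (edgeR adjusted p = 0.546). Across the other settings tried its log2 fold change ran from 0.19 to 0.29 and its adjusted p from 0.482 to 0.846. No annotated exon of another gene overlaps those of Hoxb4.

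Hoxb3, which lies next to Hoxb4 on its 3′ side, measured 6.74, 5.49 and 4.49 CPM in wild-type libraries against 5.14, 3.15 and 4.19 CPM in mutant ones. The groups overlapped, and the mutant mean was 74.7% of wild type (95% interval 53.5 to 104%, edgeR adjusted p = 0.544). The noncoding gene Hoxb3os runs on the opposite strand and covers 52.9% of the Hoxb3 exon bases and 27.3% of those of Hoxb2. It measured 0.587, 1.74 and 0.410 CPM in wild-type libraries against 1.80, 2.92 and 0.713 CPM in mutant ones (edgeR adjusted p = 0.586). The table is labelled unstranded, so reads from Hoxb3 and Hoxb3os cannot be told apart where they overlap. Hoxb3 and Hoxb3os summed to 7.32, 7.23 and 4.91 CPM per wild-type library and to 6.93, 6.06 and 4.90 CPM in the mutant.

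Hoxb5, used as a marker of long-term stem cells in reporter mice, measured 1.45, 1.45 and 1.23 CPM in wild-type libraries against 1.42, 1.57 and 1.34 CPM in mutant ones. The groups overlapped, at 105% of wild type (95% interval 73.0 to 150%, edgeR adjusted p = 0.957). The other 3 tested HoxB genes stayed below 1.2 CPM in every library. Hoxb2 measured 0.228, 0.246 and 0.308 CPM in wild-type libraries against 0.377, 0.729 and 0.312 CPM in mutant ones, a log2 fold change of 0.85 (SE 0.482, edgeR adjusted p = 0.584), which was 0.41 without mutant replicate 2. Its groups did not overlap, by the margin between 0.308 CPM in wild-type replicate 3 and 0.312 CPM in mutant replicate 3, which stand for 15 and 14 counts. Hoxb6 ranged from 0.472 to 1.15 CPM and Hoxb7 from 0.123 to 0.491 CPM over the 6 libraries. Hoxb6, at 75.1% of wild type, and Hoxb7, at 75.2%, overlapped between the genotypes and had adjusted p-values of 0.75 and 0.861 in edgeR.

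**Figure D3:**
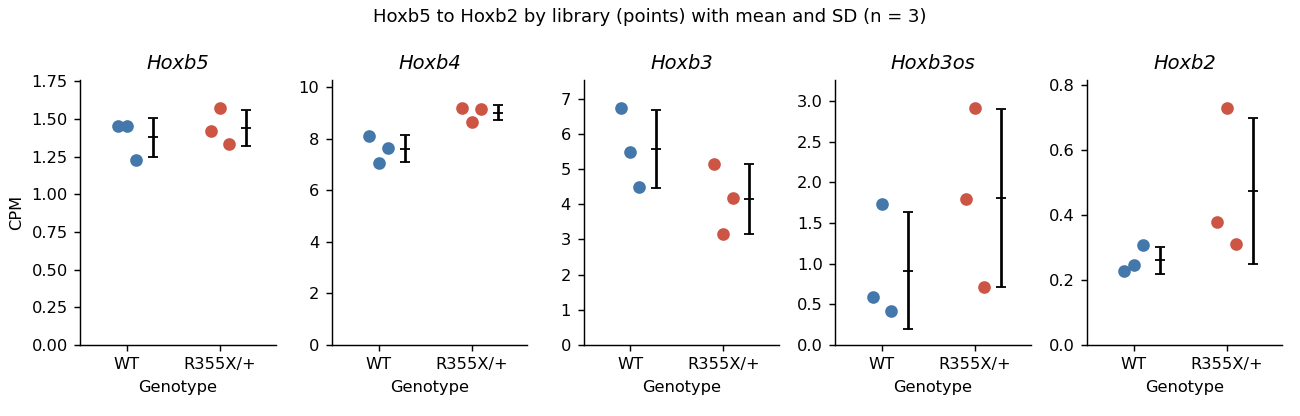
CPM of Hoxb5, Hoxb4, Hoxb3, the opposite-strand noncoding gene Hoxb3os and Hoxb2, in their order along the chromosome, each on its own linear scale from 0. Points are libraries (blue wild type, red Etv6 R355X/+) and bars are mean and SD (n = 3). Hoxb4 and Hoxb2 do not overlap between genotypes, Hoxb2 by 0.308 against 0.312 CPM, and none of the 5 genes passed the test.

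By position, the share of the summed per-kilobase level held by the central genes (numbers 5 to 8) was 52.7, 51.9 and 53.4% in wild type and 56.4, 56.2 and 55.9% in the mutant. These shares did not overlap, but the summed central levels did. Those levels were 24.7, 22.8 and 19.3 CPM per kilobase in wild type and 24.6, 24.6 and 26.4 in the mutant. The anterior genes (1 to 4) held 22.5% in wild type and 21.8% in the mutant on average. The posterior genes (9 to 13) held 24.9% ± 1.29 and 22.0% ± 0.691 (SD, n = 3), and their shares did not overlap either. Shares are parts of a total, so a higher share need not mean a higher level. These classes were compared as a description, without a test. With the longest transcript as length, the central share was 47.1% ± 1.15 and 50.0% ± 0.489. The median log2 fold change was 0.12 over the 6 anterior genes tested, 0.06 over the 6 central and -0.13 over the 2 posterior genes.

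Wild-type replicate 3 was the lowest of the 6 libraries for 7 of the 14 tested members and the highest for none. Mutant replicate 3 was the highest for 4 members, all in HoxA, and the lowest for none. Wild-type replicate 2 was also the highest for 4 members and the lowest for 2. Wild-type replicate 1 was the highest for 3 and the lowest for 1. The median deviation of a member from its mean over all libraries, on the log2 scale, was 0.12, 0.11 and -0.21 in wild-type replicates 1 to 3 and 0.02, 0.02 and 0.09 in the mutant. Wild-type replicate 3 was also the library with the highest summed myeloid markers (Mpo at 4688 CPM there and at 2015 to 2673 CPM elsewhere) and the lowest summed LSK markers (1464 CPM, against 1487 to 1898 CPM). The part of these markers in the Hox levels was not tested. Without that library the median log2 fold change of the members was -0.02 in place of 0.05, and no member passed after adjustment.

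**Figure D4:**
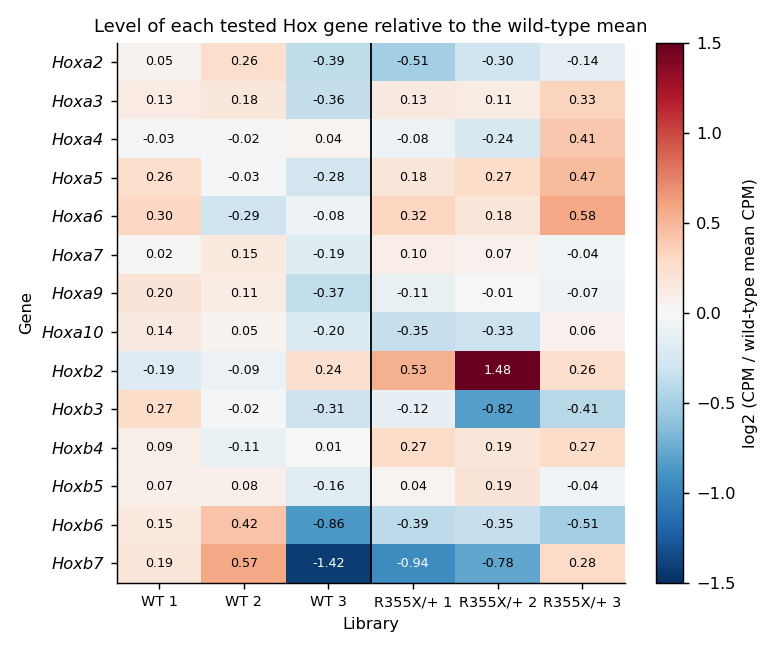
Level of each tested Hox gene in each library relative to its wild-type mean, as log2 of the CPM ratio, with colour and printed values on the same scale. Columns are libraries, wild type left of the line. Wild-type replicate 3 is lowest for 7 of 14 genes, and the largest deviations are in Hoxb2 and Hoxb7, which are low in counts.

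The clusters also hold 46 other annotated genes, antisense and microRNA genes among them, of which 27 had no count and 7 were tested. By edgeR 0 of the 7 passed after adjustment, and 2 had an unadjusted p under 0.05 (10.6% of all genes), both higher in the mutant. These were 5730596B20Rik and the pseudogene Gm11539. The former, unclassified in the count table and protein-coding in GENCODE M21, shares 8.7% of its exon bases with Hoxa3 on the opposite strand. It measured 6.17, 6.84 and 4.74 CPM in wild-type libraries against 7.75, 7.77 and 7.62 CPM in mutant ones (edgeR adjusted p = 0.44). Gm11539 measured 8.33, 8.74 and 9.52 CPM in wild-type libraries against 12.7, 10.2 and 10.9 CPM in mutant ones (edgeR adjusted p = 0.402). Neither overlapped between the genotypes, as was so for 16.3% of all genes. Hoxaas2 and Hoxaas3, antisense to HoxA genes, had log2 fold changes of -0.24 and 0.02 (edgeR adjusted p = 0.741 and 0.982). The long noncoding RNA gene Hotairm1 in HoxA had 7, 4 and 6 counts in wild type and 16, 15 and 5 in the mutant and was not tested. Hotair in HoxC and Haglr in HoxD had no count.

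HOX partner proteins and chromatin regulators of the clusters were read as a list. Of 44 listed cofactors and regulators, 39 were tested, 0 passed after adjustment by edgeR, and 2 were higher and 2 lower at an unadjusted p under 0.05, together 4 of 39, near the 10.6% of all genes. Their median log2 fold change was -0.005, with 19 above and 20 below 0. Cdx1, Cdx2, Cdx4, Meis2 and Pknox2 were too low to test. Meis1, a HOX partner, and Kmt2a, a trithorax-group regulator, are named apart from the rule, and both overlapped between genotypes. Meis1 measured 235, 229 and 177 CPM in wild-type libraries against 176, 205 and 223 CPM in mutant ones (edgeR adjusted p = 0.837). Kmt2a measured 495 ± 12.4 CPM in wild-type against 508 ± 29.6 CPM in mutant libraries (SD, n = 3 each; edgeR adjusted p = 0.88).

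The 4 regulators with the smallest p did not pass either. Ezh2, the catalytic subunit of Polycomb repressive complex 2, measured 141, 144 and 159 CPM in wild-type libraries against 178, 168 and 161 CPM in mutant ones (log2 fold change 0.19, SE 0.0671, edgeR adjusted p = 0.361). Kat7, a histone acetyltransferase of the MYST family, measured 79.8, 76.5 and 80.6 CPM and 67.2, 70.6 and 73.1 CPM (log2 fold change -0.17, SE 0.0609, edgeR adjusted p = 0.378). For both, the 3 libraries of one genotype lay apart from those of the other. Of the 39 tested regulators, 2 lay higher and 2 lower in the mutant without overlap, where 16.3% of all tested genes did not overlap. Pbx2, a HOX partner, measured 25.7, 26.6 and 26.8 CPM in wild-type libraries against 45.8, 27.1 and 30.1 CPM in mutant ones. Its groups did not overlap either, by 26.8 against 27.1 CPM, and mutant replicate 1 lay far above the rest (edgeR adjusted p = 0.44). Mllt3, an elongation factor subunit, measured 62.3 ± 3.98 and 54.6 ± 5.82 CPM (SD, n = 3 each; edgeR adjusted p = 0.47), with overlap.

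**Figure D5:**
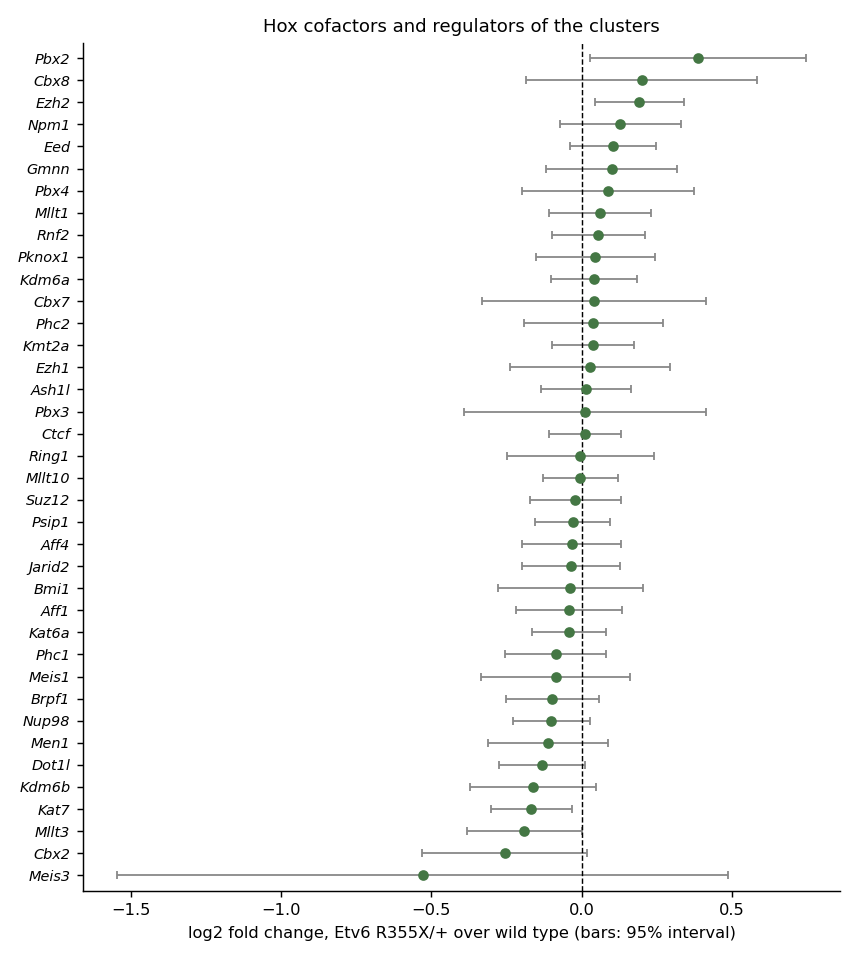
Log2 fold change of Etv6 R355X/+ over wild type for the tested Hox cofactors and cluster regulators reported here, ordered by value, with 95% intervals from the edgeR fit. Intervals of Pbx2, Ezh2, Kat7 and Mllt3 leave out 0 before adjustment, and none passed after it.

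Genes reported elsewhere as targets of HOXA9 and MEIS1 were read as a list of 20, all tested. None passed after adjustment, and 2 were higher and 2 lower at an unadjusted p under 0.05, where 10.6% of all genes passed, with a median log2 fold change of -0.02. The proto-oncogene Myc measured 301 ± 44.6 CPM in wild-type against 231 ± 11.0 CPM in mutant libraries (log2 fold change -0.38, edgeR adjusted p = 0.181), and the cell-cycle kinase gene Cdk6 2385 ± 44.5 and 1914 ± 323 CPM (-0.32, adjusted p = 0.323). Camk2d, a calcium signalling kinase gene, measured 64.2 ± 8.02 and 78.1 ± 2.95 CPM (0.28, edgeR adjusted p = 0.289), and Mef2c, a transcription factor gene of lymphoid and myeloid progenitors, 297 ± 30.1 and 350 ± 11.0 CPM (0.24, adjusted p = 0.306; SD, n = 3 for each group). These 4, chosen by their small p, did not overlap between genotypes. Of all 20 listed, 3 lay higher and 3 lower in the mutant without overlap, where 16.3% of all genes did not overlap.

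Genes just outside the clusters were read to set the clusters beside their surroundings. Of 12 listed, 9 were tested, 0 passed after adjustment and 1 had an unadjusted p under 0.05, near the 10.6% of all genes. That gene, Calcoco1 beside HoxC, measured 14.5 ± 1.83 CPM in wild-type against 18.1 ± 1.06 CPM in mutant libraries (SD, n = 3 each; log2 fold change 0.31, edgeR adjusted p = 0.388). Cbx1 beside HoxB, Skap1 beside HoxB and Lnpk beside HoxD had adjusted p-values of 0.536, 0.58 and 0.645. Evx1, Evx2 and Ttll6 were too low to test. Calcoco1 and Lnpk border HoxC and HoxD, whose own genes had 57 and 5 counts.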

How the data were processed

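RNA of sorted LSK cells was amplified by a single-primer isothermal method, sheared and sequenced, per the labels' protocols. The authors deposited expected counts per gene and library, not scaled for depth. The submitters' processing notes name build mm10 and the tools RSEM 1.31, STAR 2.7 and Trim Galore 0.60. Which annotation release served is not given in the sources used here. The table's name calls it unstranded. Expected counts share out reads between near-identical genes, which bears on paralogues.

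Expected counts were rounded, and 92 spike-in rows, all 0, were left out. Genes were filtered with filterByExpr, scaled by TMM and compared without covariates by the two-sided quasi-likelihood test of edgeR 4.0.16 in R 4.3.3 over all 20646 tested genes, with Benjamini-Hochberg adjustment and a threshold of 0.05. CPM use the TMM-scaled library size, and means carry the SD over n = 3. The 95% intervals are approximate, from the fold change and its standard error. All 39 members matched GENCODE M21, used for positions and exon lengths. Scripts were tested on simulated data.

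Members of at least 1 CPM are given by library, as is Hoxb2, named after its values were seen, and the others by range or count, and of each other list up to 4 genes with the smallest p and at least 1 CPM. Members and lists were chosen with earlier results of these data known. A few genes of these lists are not reported here. The promoter pairs were chosen after the levels were seen. Nothing in the labels states that replicates are separate animals. The p-values therefore rest on the spread among these libraries, which may be technical only. Replicate pairs differed by more than sampling noise (chi-square per gene 11.2 to 46.5). Alternatives were DESeq2 1.42.0, other count filters, scaling by RLE or by library size alone, limma-voom (limma 3.58.1), the replicate number as a block, the longest transcript as length, and leaving out each library. A fit without both mutant replicate 1 and wild-type replicate 3 was added after seeing the data.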

Additional observations from a re-analysis of the deposited data

How the results depend on the processing

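Under all settings tried, 0 Hox members passed after adjustment, with a smallest adjusted p of 0.286, for Hoxb3 without mutant replicate 1 and wild-type replicate 3 (edgeR's quasi-likelihood test). Members at an unadjusted p under 0.05 numbered 0 as reported, 1 with library size alone, 1 by DESeq2, 2 without those libraries together, and 0 to 2 when each library was left out in turn. Over all genes, 55 passed, against 329 by DESeq2, 32 with the replicate block, and 16 to 67 when each library was left out. The same-numbered libraries did not deviate together (correlations -0.0198, -0.0246 and -0.0849), so the numbers were not read as pairs, and with the block the smallest adjusted p of a member was 0.621. The regulator list's median was -0.041 with library size alone and ran from -0.028 to 0.0045 when each library was left out. With the longest transcript, HoxA held 89.5% and HoxB 10.4% of the Hox level. Signs turned for 4 members near 0. When each library was left out in turn, the log2 fold change of Hoxa9 ran from -0.22 (without wild-type replicate 3) to 0.045 (without wild-type replicate 1), that of Hoxa7 from -0.037 (without wild-type replicate 3) to 0.13, that of Hoxb5 from -0.0098 (without wild-type replicate 3; -4.2e-05 without mutant replicate 2) to 0.11, and that of Hoxa4 from -0.15 (without mutant replicate 3) to 0.17. With both mutant replicate 1 and wild-type replicate 3 left out, Hoxa7 was at -0.066. The cause was not tested. With at least 10 counts in total, 17 members were tested, and with at least 1 CPM in 3 libraries, 11. A 1.5-fold difference in either direction lies outside the intervals of Hoxa3, Hoxa7, Hoxa9, Hoxa10, Hoxb4 and, narrowly, Hoxb5. A fall or a rise of that size lies inside those of Hoxa2, Hoxa4, Hoxa5, Hoxa6, Hoxb2, Hoxb3, Hoxb6 and Hoxb7.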

Other observations

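Within HoxB, the CPM ratio of Hoxb4 to its neighbour Hoxb3 was 1.21, 1.29 and 1.70 in wild-type replicates 1 to 3 and 1.79, 2.76 and 2.19 in the mutant, without overlap. The lack of overlap depends on how reads were split between Hoxb3 and Hoxb3os. Over the sum of both, Hoxb4 stood at 1.11, 0.977 and 1.56 in wild type and 1.33, 1.43 and 1.87 in the mutant, with overlap. The ratio to Hoxb3 was picked after the values of both genes were seen, and no test was made of it. Within HoxA, the ratio of Hoxa5 to Hoxa9 was 0.308, 0.266 and 0.315 in wild type and 0.360, 0.359 and 0.429 in the mutant, also without overlap and also picked after the values were seen. The ratio of Hoxa9 to Hoxa10 overlapped, at 5.37, 5.40 and 4.60 in wild type and at 6.08, 6.43 and 4.70 in the mutant.

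The noncoding gene Gm53, which lies between Hoxb13 and Hoxb9, was also singled out after its values were seen. It had 5, 12 and 3 counts in the wild-type libraries and 0 in each mutant library. The pooled wild-type level of Gm53 was 7.74-fold a floor of 3 counts over the mutant group. Without wild-type replicate 2, which gave 12 of the 20 counts, it was 4.47-fold that floor. These ratios take the wild-type counts as exact, so they are not lower bounds on the difference. Gm53 did not reach the count filter and was not tested.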
